A study of Mus musculus with 16 samples.

Results

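The 10 genes described here, *Foxn3*, *Bdp1*, *Malat1*, *Ddx6*, *Trim37*, *Arih1*, *Bmpr2*, *Plekha5*, *Trappc3* and *Azin1*, were chosen by the genotype change of their probes in mouse lumbar spinal cord, which ran one way at 40 days and the other way at 80 days. They are 10 of 27962 gene names on the array, and every probe that carries one of these names was taken, 31 in all, with *Foxn3* under its older name *Ches1*. Because the genes were selected on the change at 40 days, the change at 80 days and the difference between these changes, all such values are given as a description. Counts of their probes past a threshold are printed once, beside the share of all probes, and test nothing. The measure that the choice did not use is the change of level with age over both genotypes, and it is tested.

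The samples are lumbar spinal cords of male SOD1G93A mice, which carry many copies of a mutant human SOD1 transgene under its own human promoter, and of non-transgenic wild-type mice of the same B6SJL background. Each genotype was sampled at 40 and at 80 days, both before symptoms, with 4 arrays per group labelled as biological replicates. Every array carried the Cy3-labeled cord sample against a Cy5-labeled reference, made by pooling RNA from the liver, kidney and heart of newborn mice of both genotypes, and no array had the dyes exchanged. Values are log2 ratios of Cy3 to Cy5 of 1 probe, and a change is SOD1G93A minus wild-type on that scale. Levels of different probes are not compared, since a probe's ratio depends on the reference as well as on the cord.

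All 4 markers each of neurons, astrocytes, oligodendrocytes and microglia were well above background on all 16 arrays. So were the 4 Hox genes listed for spinal cord position, while 1 of 4 motor neuron markers was well above background on none. The sum of 4 skeletal muscle markers in Cy3 reached 1820 units on a SOD1G93A array at 40 days against at most 462 in wild-type at that age, and its part in the results was not tested. The probe for mouse *Sod1*, which does not read the human transgene and so does not check the genotype, stood at -0.01 between the genotypes at 40 days (adjusted p = 0.998 in limma) and at -0.17 at 80 days (adjusted p = 0.721 in limma). Between 46.1% and 55.3% of probes were well above background in Cy3. The lowest share was in wild-type replicate 4 at 40 days. Each slide held 1 array of every group, with the same replicate number, and a group always took the same position on its slide, so that position and group cannot be told apart. The fall or rise of a transcript in whole cord can reflect fewer cells of a type or less RNA per cell, and these cannot be told apart here.

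The 10 genes work in separate parts of the cell. *Ddx6* is a DEAD-box RNA helicase of P-bodies, where messenger RNAs are held silent or lose their cap, and *Malat1* is a long noncoding RNA of the nuclear speckles that store splicing factors. *Foxn3* is a forkhead repressor that recruits the Sin3 corepressor, and *Bdp1* is a subunit of TFIIIB, the factor that places RNA polymerase III on its genes. *Trim37* and *Arih1* are ubiquitin ligases, *Bmpr2* is the type II receptor for bone morphogenetic proteins, and *Azin1* binds antizyme and so spares ornithine decarboxylase, the first enzyme of polyamine synthesis. *Plekha5* carries a pleckstrin homology domain that binds phosphoinositides, and *Trappc3* is a core subunit of the TRAPP complexes that tether vesicles on their way to and through the Golgi.

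Of the 31 probes, 30 passed the filter on dim probes, and 1 of *Arih1* was not well above background on any array. The genotype change had opposite signs at the 2 ages in 28 of the 31 probes and in 27 of the 30 tested, where 50.6% of all tested probes had opposite signs. At an unadjusted p under 0.05, 9 of the 30 were called at 40 days, against a background of 4.47% of all probes (2.44% higher and 2.03% lower in SOD1G93A). At 80 days 11 were called, against a background of 6.86% (3.74% higher and 3.12% lower). In 7 probes the calls at both ages were opposite, against 0.305% of all probes. In 3 probes, of *Foxn3*, *Ddx6* and *Azin1*, no array of one genotype overlapped the other at either age, with the order turned, against 0.101% of all probes. These counts follow from the choice of the genes and support nothing. No probe of the array had a genotype change or a difference between the ages with a Benjamini-Hochberg adjusted p under 0.05 in limma, although 953, 1481 and 1466 had an unadjusted p under 0.05 at 40 days, at 80 days and for the difference, the last being 6.68% of all probes. The smallest adjusted p values were 0.998, 0.0729 and 0.496 in that order. At 80 days 1 probe passed adjustment in Cy3 alone, in the authors' table and without the filter on dim probes. The count at 40 days was 1894 without wild-type replicate 4, and that at 80 days was 974 without SOD1G93A replicate 3.

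**Figure D1:**
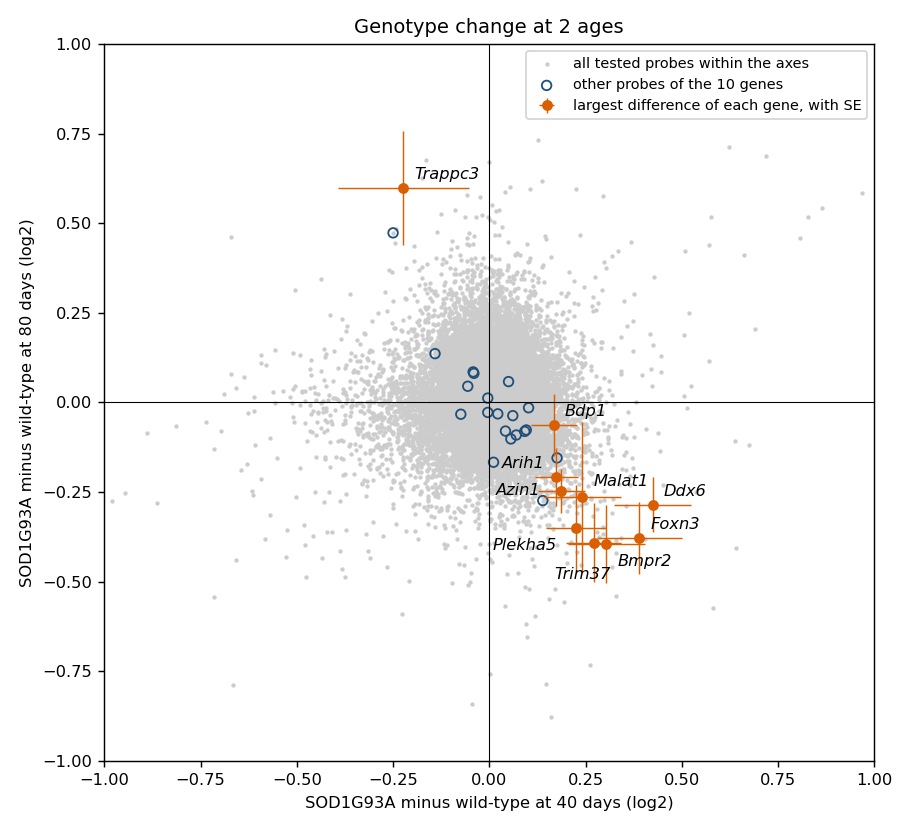
Genotype change, SOD1G93A minus wild-type on the log2 scale, at 40 days (horizontal axis) and at 80 days (vertical axis), with 1 point per probe. The probe with the largest difference of each of the 10 genes is filled, with standard errors from limma, the other tested probes of these genes are open circles, and grey points are all tested probes within the axes. *Trappc3* lies alone at the upper left (-0.22 and 0.60), the other 9 filled points lie at the lower right, and most open circles lie near 0.

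Taking for each gene the probe with the largest difference between the ages, 9 genes were higher in SOD1G93A at 40 days and lower at 80 days, and *Trappc3* ran the other way. This split depends on the probe taken. At its brightest probe *Arih1* also ran the other way (-0.141 at 40 days and 0.136 at 80 days), and *Malat1* did not turn sign (0.05 and 0.058). In the probes with the largest difference the changes were small. They ran between 0.17 and 0.43 in size at 40 days and between 0.06 and 0.60 at 80 days, at most 1.34-fold and 1.51-fold. The reference channel alone changed by at most 0.13 in these 10 probes, and in the cord channel alone all 10 had the signs of the ratio at both ages. The reference part was not small in every probe. For *Arih1* at 40 days the ratio changed by 0.174, the cord channel alone by 0.083 and the reference channel alone by -0.127. For *Trappc3* at 40 days these values were -0.224, -0.276 and -0.128. In wild-type cord 9 of the 10 were higher at 80 than at 40 days, and in SOD1G93A cord 9 of the 10 were lower. The exception was *Trappc3* in each case, and the change with age was the larger in SOD1G93A in 6 genes. The difference between the genotype changes is also the difference between the age changes of the genotypes. The choice of the genes therefore favoured these counts, which test nothing.

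**Figure D2:**
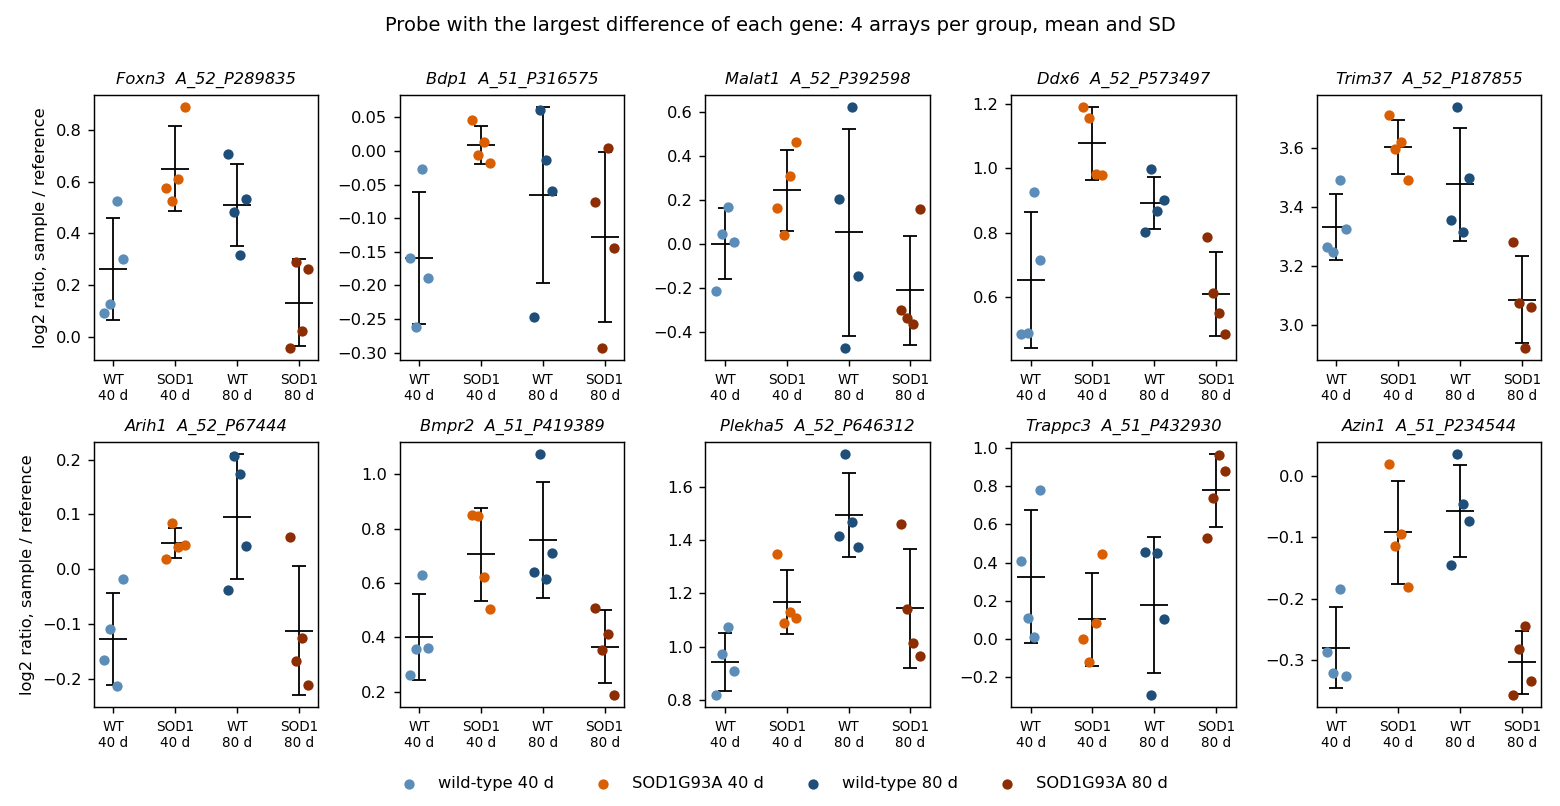
Log2 ratio of cord to reference for the probe with the largest difference of each gene, on the 4 arrays of each group, with the mean (wide bar) and SD (capped line). Each panel has its own vertical axis. In 9 panels the SOD1G93A 40-day and wild-type 80-day means are the upper pair, and in the *Trappc3* panel the SOD1G93A 80-day mean is the highest at 0.78.

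Among the genes of RNA fate, the single probe of *Ddx6* had the largest change of the 10 at 40 days. It lies on the plus strand of chromosome 9, at chr9:44571049-44571108 of the mm7 mouse build that the files use for all positions given here, and begins as follows.
Ddx6 A_52_P573497, first 30 bases: ttcgttgcactaactgctggtctttaaaga
At 40 days its log2 ratios were 0.48, 0.49, 0.93 and 0.71 in wild-type replicates 1 to 4 and 1.19, 1.16, 0.98 and 0.98 in SOD1G93A. At 80 days they were 0.80, 1.00, 0.87 and 0.90 in wild-type and 0.79, 0.61, 0.55 and 0.48 in SOD1G93A. No array overlapped the other genotype at either age, although the nearest pair at 80 days, SOD1G93A replicate 1 and wild-type replicate 1, lay on the same slide and differed by only 0.02. The mean change was 0.43 (SE 0.10) at 40 days and -0.29 (SE 0.078) at 80 days.

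*Malat1* has 4 probes spread over 3.96 kb of its transcript, and they are shown whole because this RNA is not translated and its probes disagreed. They run from the 5′ to the 3′ end of the minus strand of chromosome 19, and no base is set in capitals because no part of a probe was singled out.
Malat1 A_52_P392598, chr19:5696999-5697058: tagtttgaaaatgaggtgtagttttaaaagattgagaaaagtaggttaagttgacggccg
Malat1 A_51_P394383, chr19:5695332-5695391: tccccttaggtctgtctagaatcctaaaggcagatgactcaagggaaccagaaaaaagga
Malat1 A_52_P416123, chr19:5693906-5693965: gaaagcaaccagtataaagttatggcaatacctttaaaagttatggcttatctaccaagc
Malat1 A_51_P377045, chr19:5693036-5693095: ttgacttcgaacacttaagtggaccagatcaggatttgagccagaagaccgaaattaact
The 5′ probe read -0.21, 0.05, 0.17 and 0.01 in wild-type and 0.16, 0.04, 0.31 and 0.47 in SOD1G93A at 40 days. It read at 80 days 0.21, -0.47, 0.62 and -0.14 in wild-type and -0.30, -0.34, -0.36 and 0.16 in SOD1G93A. The genotypes overlapped at both ages, and wild-type cord at 80 days had the widest spread (SD 0.47, n = 4). The change of 0.24 at 40 days and -0.26 at 80 days became -0.07 at 80 days without wild-type replicate 3 and -0.44 without replicate 2. The 3′ probe changed by 0.14, or 0.086 without wild-type replicate 4 and 0.218 without replicate 2, and by -0.27 at 80 days, with all 4 SOD1G93A arrays at 80 days (-1.02, -1.16, -1.21 and -1.05) below all 4 wild-type arrays (-0.92, -0.99, -0.58 and -0.85). The probe before it changed by 0.18 and -0.155, the latter becoming 0.01 without wild-type replicate 3 at 80 days. The brightest of the 4 probes, A_51_P394383, changed by 0.05 at 40 days and 0.06 at 80 days, with an SD of 0.65 in wild-type and 0.64 in SOD1G93A at 80 days (n = 4 each). Its sign rested on single arrays, from -0.081 to 0.155 at 40 days and from -0.247 (without wild-type replicate 2) to 0.329 (without SOD1G93A replicate 3) at 80 days. The 2 outermost probes of *Malat1* thus turned sign between the ages whichever array was left out. With all arrays kept, A_52_P416123 between them also turned sign, which it did not without wild-type replicate 3 at 80 days. The changes of A_51_P394383 had the same sign at both ages with all arrays kept.

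Among the transcription genes, *Foxn3* had the largest difference between the ages of the 9 that ran down. Its 3 probes lie on the minus strand of chromosome 12, the first 5.49 kb and the second 4.66 kb before the most 3′ probe. The first 2 are shown because they are close neighbours and behaved differently.
Foxn3 A_52_P289835, chr12:96690862-96690921, first 30 bases: tgaagccatagaaactcatattgacactca
Foxn3 A_51_P172344, chr12:96690033-96690092, first 30 bases: tgagattaaaggcacattgatggactcaac
The first read 0.09, 0.13, 0.53 and 0.30 in wild-type and 0.57, 0.53, 0.61 and 0.89 in SOD1G93A at 40 days. The 80-day values were 0.71, 0.48, 0.32 and 0.53 in wild-type and -0.04, 0.29, 0.02 and 0.26 in SOD1G93A. The genotypes did not overlap at either age, although wild-type replicate 3 and SOD1G93A replicate 2 both rounded to 0.53 at 40 days. The change was 0.39 (SE 0.11) and -0.38 (SE 0.10). The second probe changed by -0.07 and -0.03, and the third by -0.04 and 0.085, with overlapping genotypes at both ages.

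*Bdp1* had the smallest difference of the 10 genes. Its 3 probes on the minus strand of chromosome 13 changed by 0.06 and -0.10, by 0.17 and -0.06, and by 0.01 and -0.17, from the 5′ to the 3′ end. In the middle probe, A_51_P316575 at chr13:97096412-97096471, wild-type at 40 days read -0.16, -0.26, -0.03 and -0.19 and SOD1G93A read 0.05, -0.01, 0.01 and -0.02, with no overlap. Its values at 80 days were -0.25, 0.06, -0.01 and -0.06 in wild-type and -0.08, -0.29, 0.00 and -0.14 in SOD1G93A, which overlapped. Its change at 80 days was -0.008 without SOD1G93A replicate 2 and -0.124 without wild-type replicate 1. The 3′ probe overlapped at 40 days and was apart at 80 days, with -0.33, -0.33, -0.31 and -0.32 in wild-type and -0.45, -0.43, -0.68 and -0.40 in SOD1G93A, so that no single probe of *Bdp1* had genotypes apart at both ages. The 3′ probe's change at 80 days was -0.10 without SOD1G93A replicate 3.

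Of the ubiquitin ligases, *Trim37* has 1 probe 79.5 kb before its most 3′ probe on the plus strand of chromosome 11. It is shown whole because it alone held the difference.
Trim37 A_52_P187855, chr11:87210421-87210480: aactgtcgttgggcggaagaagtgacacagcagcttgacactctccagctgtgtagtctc
At 40 days wild-type read 3.27, 3.25, 3.49 and 3.33 and SOD1G93A read 3.71, 3.60, 3.62 and 3.49. At 80 days wild-type read 3.35, 3.74, 3.31 and 3.50 and SOD1G93A read 3.28, 3.08, 2.92 and 3.06, all below wild-type. The highest wild-type and the lowest SOD1G93A arrays, both 3.49, met at 40 days, while SOD1G93A was higher on all 4 slides at 40 days and lower on all 4 at 80 days. The change was 0.27 (SE 0.072) and -0.39 (SE 0.11). The other probes of *Trim37*, at the 3′ end, changed by 0.02 and -0.03 and by 0.10 and -0.02.

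*Arih1* has 6 probes on the minus strand of chromosome 9, and their differences between the ages ran from -0.38 to 0.28. The most 3′ probe, A_52_P67444 at chr9:59415524-59415583, read -0.17, -0.11, -0.21 and -0.02 in wild-type and 0.02, 0.09, 0.04 and 0.04 in SOD1G93A at 40 days. The arrays of 80 days read -0.04, 0.21, 0.17 and 0.04 in wild-type and 0.06, -0.17, -0.13 and -0.21 in SOD1G93A. The genotypes were apart at 40 days and overlapped at 80 days through SOD1G93A replicate 1, with changes of 0.17 (SE 0.056) and -0.21 (SE 0.081). The next probe, 1.95 kb upstream and the brightest of the 6, went the other way, by -0.14 and 0.14. Its change was -0.075 without SOD1G93A replicate 2 at 40 days and 0.083 without wild-type replicate 2 at 80 days. The remaining tested probes changed by 0.07 or less in size at 40 days and by 0.091 or less at 80 days.

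*Bmpr2* has 3 probes over 6.99 kb of the plus strand of chromosome 1, and the 5′ probe, A_51_P419389 at chr1:60121592-60121651, held the difference. It read 0.26, 0.36, 0.63 and 0.36 in wild-type and 0.85, 0.85, 0.62 and 0.51 in SOD1G93A at 40 days. Values at 80 days were 0.64, 1.07, 0.61 and 0.71 in wild-type and 0.51, 0.35, 0.41 and 0.19 in SOD1G93A. The genotypes overlapped at 40 days, through wild-type replicate 3, and were apart at 80 days, with changes of 0.30 (SE 0.10) and -0.395 (SE 0.11). The other probes of *Bmpr2* changed in the same directions but by less, by 0.06 and -0.04 and by 0.10 and -0.08, the last being the brightest probe of the gene.

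Of the genes of membranes and traffic, *Plekha5* has 1 probe 53.1 kb before its most 3′ probe on the plus strand of chromosome 6. Both it and the 5′ probe of *Trappc3* are shown whole. For the latter the reason is that only *Trappc3* ran the other way at its probe with the largest difference.
Plekha5 A_52_P646312, chr6:140587950-140588009: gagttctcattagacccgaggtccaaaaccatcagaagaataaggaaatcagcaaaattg
Trappc3 A_51_P432930, chr4:125717672-125718546: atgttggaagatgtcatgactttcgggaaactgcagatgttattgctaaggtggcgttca
At 40 days the *Plekha5* probe read 0.82, 0.97, 1.07 and 0.91 in wild-type and 1.35, 1.09, 1.13 and 1.11 in SOD1G93A, with no overlap. In the 80-day groups it read 1.42, 1.72, 1.47 and 1.37 in wild-type and 1.46, 1.14, 1.01 and 0.96 in SOD1G93A, where replicate 1 lay among the wild-type arrays. The change was 0.225 (SE 0.077) and -0.35 (SE 0.12), and the level rose by 0.55 between the ages in wild-type against -0.02 in SOD1G93A. The other probes of *Plekha5* changed by 0.04 and -0.08 and by -0.06 and 0.045.

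Both probes of *Trappc3* had large differences between the ages, 0.82 and 0.72. The genome span of its 5′ probe is longer than the 60 bases of the probe, so that these bases are not contiguous in the genome. It read 0.41, 0.11, 0.01 and 0.78 in wild-type and 0.00, -0.12, 0.09 and 0.45 in SOD1G93A at 40 days. At the later age it read 0.46, -0.29, 0.45 and 0.10 in wild-type and 0.53, 0.74, 0.96 and 0.88 in SOD1G93A, all above wild-type. The change was -0.22 (SE 0.17) at 40 days, where the genotypes overlapped, and 0.60 (SE 0.16) at 80 days. The second probe, at chr4:125720152-125720211, changed by -0.25 (SE 0.16) and 0.47 (SE 0.16). The changes at 40 days were -0.07 and -0.14 without wild-type replicate 4, and the second probe's change at 80 days was 0.31 without wild-type replicate 2.

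*Azin1*, the polyamine gene, had the tightest replicates of the probes with genotypes apart at both ages. Its 5′ probe, A_51_P234544 at chr15:38601065-38601124 on the minus strand, read -0.29, -0.32, -0.18 and -0.33 in wild-type and 0.02, -0.11, -0.09 and -0.18 in SOD1G93A at 40 days. The later groups read -0.14, 0.04, -0.04 and -0.07 in wild-type and -0.36, -0.28, -0.24 and -0.33 in SOD1G93A. The change was 0.19 and -0.25 (SE 0.061 at each age). Of the other probes, one changed by 0.00 and 0.01 and the most 3′ by 0.09 and -0.08.

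The probes of a gene differed in how evenly they held the difference. In *Foxn3*, *Trim37*, *Bmpr2*, *Plekha5* and *Azin1* a single probe stood away from the rest, while in *Trappc3* (0.82 and 0.72), *Malat1* (-0.505, -0.413 and -0.33 in 3 of 4 probes) and *Bdp1* (-0.231, -0.177 and -0.158) several probes shared it. Of the 9 genes with several probes, the one with the largest difference was the furthest 5′ in 7, *Bdp1* and *Arih1* being the exceptions. Among 1011 genes of the array with exactly 3 tested probes in different places, the furthest 5′ had the largest difference in 38% of genes. The 9 genes include *Trappc3* with 2 probes, *Malat1* with 4 and *Arih1* with 6, so that these shares are of unlike sets. This comparison of probe positions was made after the values had been seen and was not tested. A measure of all genes with probes at least 1 kb apart, the median of the 5′ minus the 3′ probe after centring each gene, ran from -0.05 to 0.03 over the wild-type arrays and from 0.00 to 0.03 over the SOD1G93A arrays at 40 days. At 80 days it ran from -0.01 to 0.00 in wild-type and from -0.01 to 0.03 in SOD1G93A. Its part in the difference of these probes was not tested. The brightest probe was the one with the largest difference in only 5 genes, *Foxn3*, *Ddx6*, *Trim37*, *Plekha5* and *Azin1*.

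**Figure D3:**
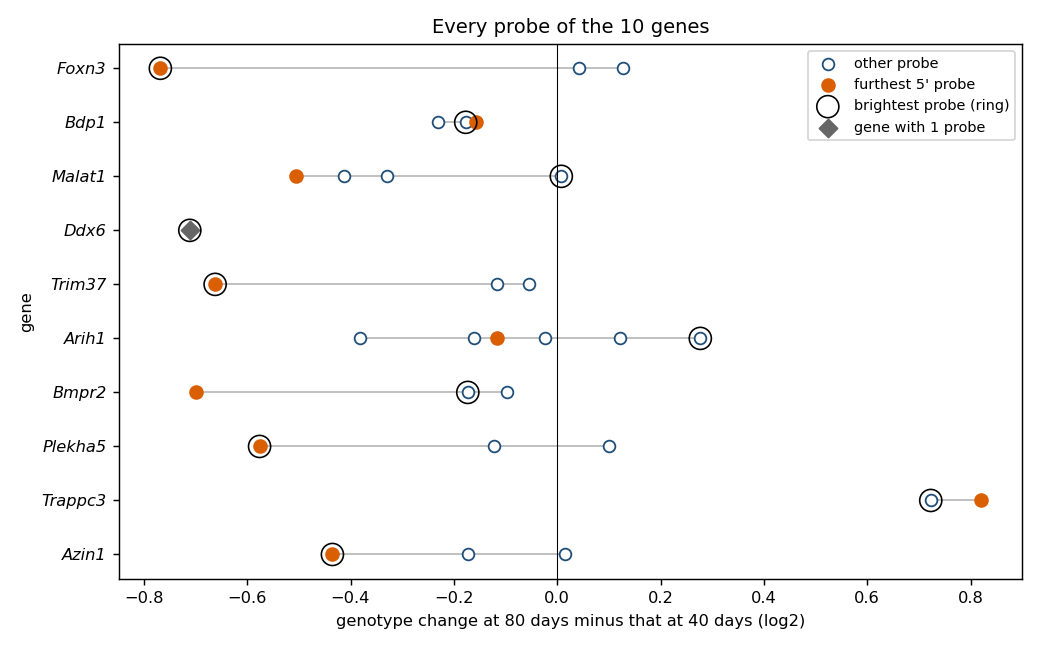
Difference between the genotype change at 80 days and that at 40 days (horizontal axis, log2) for each of the 31 probes, by gene (vertical axis). Orange points are the furthest 5′ probe of genes with several probes, open points the others, the diamond is the single probe of *Ddx6*, and a ring marks the brightest probe. In *Foxn3*, *Trim37*, *Bmpr2*, *Plekha5* and *Azin1* the furthest 5′ probe stands away from the others, while both probes of *Trappc3* lie together at 0.72 and 0.82; the orange point of *Arih1* was not above background.

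The order of the neuronal markers between the genotypes depended on the measure. The mean log2 ratio of the 4 neuronal markers was 6.02 in wild-type and 6.13 in SOD1G93A at 40 days and 6.11 and 6.0 at 80 days, the order of the 9 genes. The arrays overlapped at both ages, from 5.81 to 6.11 in wild-type and from 6.06 to 6.17 in SOD1G93A at 40 days. At 80 days they ran from 6.01 to 6.31 and from 5.89 to 6.13. In Cy3 alone, with overlap at both ages, the sum of the 4 markers ran from 39000 to 46700 units in wild-type and from 35700 to 42900 in SOD1G93A at 40 days. At 80 days it ran from 33200 to 45200 and from 40600 to 48200. That order is the order of *Trappc3*. The brightest markers weigh most in a sum of units, so that the channel and the way of combining cannot be told apart here. The astrocyte markers had ratios of 4.79 and 4.93 at 40 days and 4.87 and 4.82 at 80 days, and single arrays overlapped at both ages. At 80 days *Gfap* (-0.166) and *Aqp4* (-0.088) were lower in SOD1G93A, and *Aldh1l1* (0.033) and *Slc1a2* (0.021) were higher. The mean ratio of the oligodendrocyte markers, at 5.63 and 5.79 and at 5.33 and 5.43, was higher in SOD1G93A at both ages. Single arrays of the genotypes overlapped at both ages, and *Mbp* was lower in SOD1G93A at 80 days (-0.071). The markers of meningeal fibroblasts moved most at 40 days, with a change of -0.979 for *Dcn*, -0.813 for *Lum*, -0.689 for *Col1a1* and -0.616 for *Col3a1*, and of -0.274 to 0.023 at 80 days. Their mean ratio ran from -4.68 to -2.14 over the wild-type arrays and from -4.64 to -2.94 over the SOD1G93A arrays at 40 days, with overlap. Of the 4 sensory neuron markers, *Calca* was at -0.462 at 40 days and -0.033 at 80 days, and *Prph* at -0.115 and -0.026. *Scn10a* was well above background on only 1 array, and no probe was found for *Trpv1*. The part of cell numbers in the changes of the 10 genes was not tested.

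The level of several of these transcripts changed with age. Over both genotypes, 8 of the 30 tested probes differed between 80 and 40 days at an unadjusted p under 0.05 in limma, 2 higher and 6 lower, in 6 genes. The background was 22.8% of all tested probes, 11.8% higher and 11% lower, so that the share of these probes is close to that of the array. With Benjamini-Hochberg adjustment over all probes 2 of the 30 were called, against 5.41% of all probes. The median change with age was -0.03 over the 30 probes and 0.01 over all probes. In an exact permutation of the age labels within each genotype, two-sided, 5 probes had a p under 0.05. Without SOD1G93A replicate 3 at 40 days the limma count was 5.

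*Plekha5* rose with age in the probe that also held its genotype difference, by 0.26 (SE 0.074, adjusted p = 0.0466 in limma, exact permutation p = 0.0343). This mean came from wild-type, where the difference was 0.55, against -0.02 in SOD1G93A. An *Arih1* probe that had no genotype difference, A_52_P556290, fell by 0.18 (SE 0.037, adjusted p = 0.00891 in limma), with the smallest p that the 4900 relabellings can give, 0.000408. Its neighbour A_52_P286543 changed by -0.12 (adjusted p = 0.124 in limma, exact permutation p = 0.0237), and the 2 *Arih1* probes nearest the 3′ end by 0.10 and 0.03. In *Foxn3* the 2 probes without a genotype difference had lower values at 80 days, by -0.26 (adjusted p = 0.157 in limma, exact permutation p = 0.0359) and -0.15 (adjusted p = 0.069 in limma, exact permutation p = 0.00531). The *Foxn3* probe with the genotype difference changed by -0.135 (adjusted p = 0.328 in limma). Thus in *Foxn3* and *Arih1* the probes called between the ages were not those with the largest genotype difference. The first of these *Foxn3* values was -0.17 without SOD1G93A replicate 3 at 80 days, and its call was lost without SOD1G93A replicate 3 at 40 days or replicate 4.

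The remaining unadjusted calls were in *Trim37* (A_52_P187855, -0.19, exact permutation p = 0.126), *Malat1* (A_51_P377045, -0.14, exact permutation p = 0.129) and *Trappc3* (A_51_P162176, 0.265, exact permutation p = 0.138). The other *Trappc3* probe changed by 0.26 (adjusted p = 0.236 in limma). These 3 calls did not pass the adjustment, with adjusted p of 0.107, 0.217 and 0.217, and all 3 were lost in the exact permutation test. That test shuffles ages within each genotype, so that unlike age changes in the genotypes widen the spread it measures against. Age changes were 0.144 in wild-type and -0.519 in SOD1G93A for *Trim37*, 0.063 and -0.35 for *Malat1*, and -0.096 and 0.627 for *Trappc3*. The permutation therefore cannot decide how strong these calls are. The calls of *Malat1* and *Trappc3* were each lost in 10 of the 16 fits that left out 1 array. No probe of *Bdp1*, *Ddx6*, *Bmpr2* or *Azin1* reached an unadjusted p under 0.05 in limma for the change with age.

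**Figure D4:**
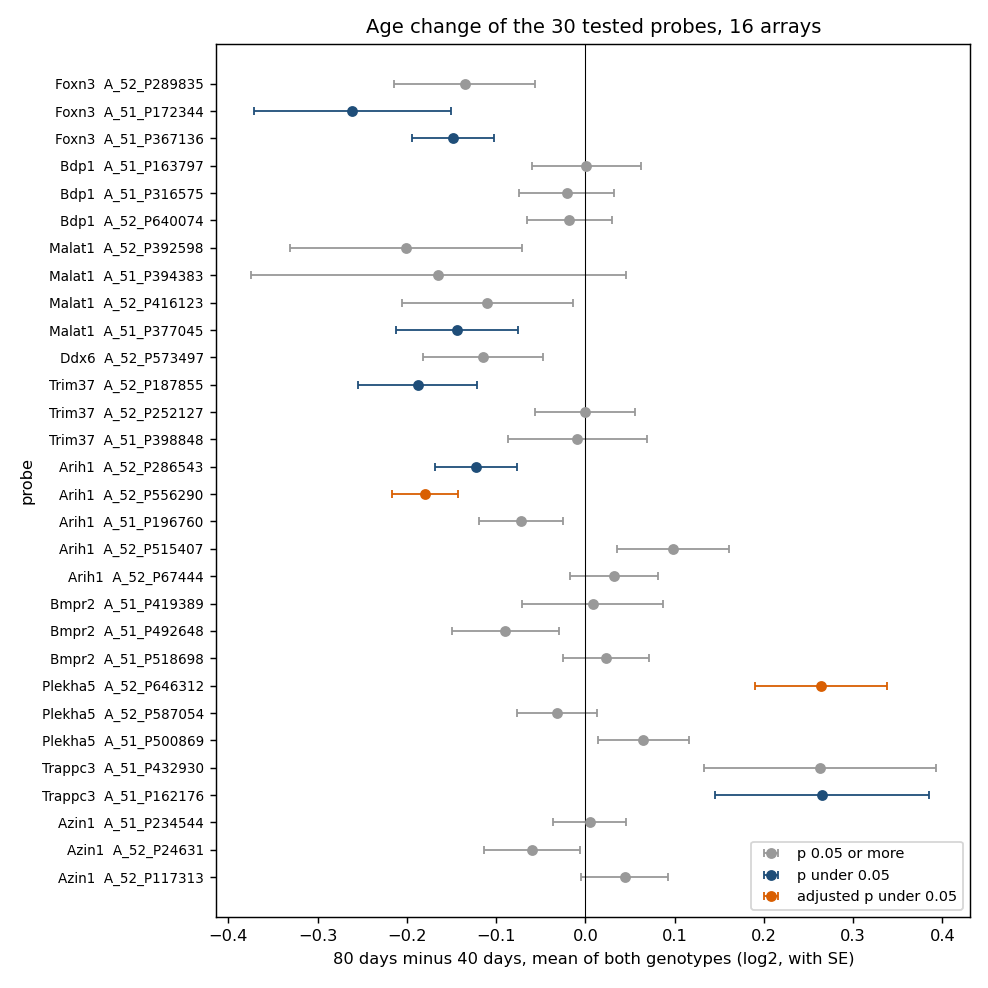
Change of level from 40 to 80 days averaged over both genotypes (horizontal axis, log2, with the standard error from limma) for the 30 tested probes, named by gene and probe (vertical axis), over 16 arrays. Orange points passed Benjamini-Hochberg adjustment (A_52_P556290 of *Arih1* at -0.18 and A_52_P646312 of *Plekha5* at 0.26), blue points had an unadjusted p under 0.05 only, and grey points did not.

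Genes that work with the 10 were listed by function, 195 in 9 lists, and read at their brightest probe. Of 175 measured at 40 days, 0 were higher and 5 lower in SOD1G93A at an unadjusted p under 0.05 in limma, 2.86% against the background of 4.47%, and 0 passed adjustment. Of the 5, 3 belong to the BMP pathway around *Bmpr2*, the ligand *Bmp7* (-0.38), the type I receptor *Bmpr1b* (-0.33) and the target *Id2* (-0.25). The others were *Lsm6*, a subunit of the Lsm ring that works with *Ddx6* in decay (-0.39), and the speckle protein gene *Srsf11* (-0.135). All 5 had the same adjusted p (adjusted p = 0.998 in limma), and the calls of *Bmp7* and *Srsf11* were lost without any of several single arrays. Without wild-type replicate 4 *Bmpr1b* was at -0.19. The meningeal fibroblast markers were lower in the same comparison, by the values given above, and their part in these calls was not tested. The count was 14 without wild-type replicate 4, 8 without SOD1G93A replicate 1 and 3 without SOD1G93A replicate 2. No partner gene was called in the direction of the 9 genes at 40 days.

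At 80 days 10 of 176 partner genes were higher and 6 lower at an unadjusted p under 0.05 in limma, 9.09% against the background of 6.86%, again with 0 after adjustment, and 9 in all without SOD1G93A replicate 2. The smallest p values were those of the type I receptor *Acvr1* (0.27, adjusted p = 0.654 in limma), the cullin modifier *Nedd8* (-0.25, adjusted p = 0.668 in limma), the antizyme *Oaz1* (0.23, adjusted p = 0.668 in limma), the ligase *Trim3* (0.215, adjusted p = 0.668 in limma), *Lsm6* (-0.415, adjusted p = 0.668 in limma) and *Lsm4* (0.18, adjusted p = 0.683 in limma). *Oaz1*, the protein that *Azin1* binds, was at -0.01 (adjusted p = 0.998 in limma) at 40 days. *Lsm6*, unlike *Ddx6*, was lower in SOD1G93A at both ages, and its change differed by -0.025 between the ages, where the smallest adjusted p of any probe was 0.496 in limma. *Smad4*, which carries BMP signals to the nucleus, changed by -0.03 (adjusted p = 0.998 in limma) and -0.08 (adjusted p = 0.812 in limma), and *Tbp*, which joins *Bdp1* in TFIIIB, by 0.01 (adjusted p = 0.998 in limma) and 0.07 (adjusted p = 0.834 in limma). None of the 24 measured RNA polymerase III genes was called at either age, against backgrounds of 4.47% of all probes at 40 days and 6.86% at 80 days.

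Between the ages 23 of 177 partner genes were higher and 20 lower at 80 days at an unadjusted p under 0.05 in limma, 24.3% against the background of 22.8%, and 5 passed adjustment. These were *Plekha1* of the family of *Plekha5* (-0.44, adjusted p = 0.000328 in limma), the cullin partner *Rnf7* (-0.24, adjusted p = 0.00324 in limma), the inhibitory *Smad7* (-0.14, adjusted p = 0.0242 in limma), the forkhead gene *Foxp1* (0.195, adjusted p = 0.0274 in limma) and the ligand *Bmp4* (-0.24, adjusted p = 0.0295 in limma). By list, the share called between the ages ran from 8.33% of the polyamine genes to 37.5% of the RNA polymerase III genes. Of these 24 RNA polymerase III genes 4 were higher and 5 lower, and 0 passed adjustment. The noncoding RNA *Neat1*, a neighbour of *Malat1* in the genome, changed by 0.61 with age (adjusted p = 0.0596 in limma), while the 4 probes of *Malat1* changed by -0.20 to -0.11.

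Over the 16 arrays the mean standardized profile of the 10 genes, each at its brightest probe and *Trappc3* with its sign turned, was highest on SOD1G93A replicate 1 at 40 days (0.75) and lowest on SOD1G93A replicate 3 at 80 days (-1.05). It ran from -0.79 to 0.14 in wild-type and from 0.07 to 0.75 in SOD1G93A at 40 days, and from 0.19 to 0.70 and from -1.05 to -0.32 at 80 days, so that the genotypes overlapped slightly at 40 days and not at 80 days. The correlation with it was 0.86 for *Trim37*, 0.83 for *Azin1*, 0.78 for *Ddx6*, 0.76 for *Foxn3* and 0.75 for *Bdp1*. It was 0.63 for *Plekha5*, 0.55 for *Bmpr2* and -0.71 for *Trappc3*, and the brightest probes of *Malat1* (-0.01) and *Arih1* (-0.30) did not follow it. Each of these genes is part of the profile, and all points share the arrays, so that the correlations are a description. The order and the overlap of the genotypes in the profile follow from the choice of the genes and test nothing.

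The genes outside the 10 with the most similar profile were *Ankra2* (r = 0.883 over 16 arrays), *Gnas*, which encodes the stimulatory G protein alpha subunit (0.877), the adaptor *Crk* (0.865), *Nol8* (0.854), the translation initiation factor *Eif5b* (0.85), the nuclear receptor coactivator *Ncoa7* (0.85), the phosphatase subunit *Ppp2r5e* (0.846) and the heterochromatin protein *Cbx3* (0.845). Their genotype changes ran from 0.095 to 0.232 at 40 days and from -0.449 to -0.114 at 80 days. The most opposite were *Parp1* (-0.89), a sensor of DNA breaks, *Fem1al* (-0.835), the sterol sensor partner *Scap* (-0.83) and the complex II subunit *Sdhc* (-0.83), with changes from -0.13 to -0.01 and from 0.20 to 0.27. They were picked from all probes for their likeness, so that the correlations carry no test.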

How the data were processed

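The deposited scanner files hold fluorescence intensity for each spot of 16 two-colour Agilent arrays, extracted by the authors with Feature Extraction 9.5.3.1 per the file headers, and the series table holds log2 Cy3 signals normalized by the authors within each age (column medians 6.4 at 40 days and 6.09 or 6.1 at 80 days), used as an alternative only. From the median intensities of both channels, local backgrounds more than 20 units above their spot were reset to the array's median, which touched 3 arrays and at most 63 spots. Background was corrected by normexp with an offset of 50, dyes by loess within each array, and arrays by quantiles of the average intensity (limma 3.58.1 in R 4.3.3). Outlier spots, 107 to 301 per array, were left out and spots of a probe averaged. Probes entered a test where 3 or more of the 4 arrays of any group gave a Cy3 signal well above background and each group had 2 or more measured arrays.

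Genotype changes at each age were fitted on the 8 arrays of that age, and the change with age on all 16, with lmFit and eBayes of limma, called at an unadjusted p under 0.05, with Benjamini-Hochberg adjustment over all tested probes beside it. The age labels were also permuted exactly within genotype. The p-values measure the spread between these samples, whose number sets the precision. The authors dropped arrays of low quality, which left 4 per group.

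All probes of the 10 genes are named. Of the partner genes, those named are the calls with the smallest p and 4 fixed genes, Oaz1, Lsm6, Smad4 and Tbp, and of similar profiles the 8 highest and 4 lowest. The members and all lists were chosen with earlier results of these data known. Gene names come from the files, updated through RefSeq where an accession or synonym matched (22704 and 10016 of 41174 probes). Probe sequences and mm7 positions are those of the files. Fits were tested on simulated data. Alternatives tried were other backgrounds, the scanner's processed signals, no loess, Cy3 alone, the authors' table, other filters, the replicate block and leaving out each array.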

Additional observations from a re-analysis of the deposited data

Results flagged for a closer look

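Among 124 pairs of a probe and a group, 5 had 1 array far from the other 3 by Dixon's criterion, and chance gives about 1 in 20. A probe of *Bdp1* (A_52_P640074) read -0.68 in SOD1G93A replicate 3 at 80 days against -0.45 to -0.40 on the others. The 5′ probe of *Malat1* (A_52_P392598) read 0.16 in SOD1G93A replicate 4 at 80 days against -0.36 to -0.30. In SOD1G93A at 40 days, *Bmpr2* (A_51_P518698) read -0.58 in replicate 2 against -0.40 to -0.39. In the same group *Plekha5* (A_52_P646312) read 1.35 in replicate 1 against 1.09 to 1.13, and *Azin1* (A_52_P24631) read -0.07 in replicate 1 against -0.19 to -0.18.

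In a probe each of *Foxn3*, *Ddx6*, *Trim37* and *Azin1*, SOD1G93A was higher on all 4 slides at 40 days and lower on all 4 at 80 days. This order follows from the choice of the genes and tests nothing, and the share of all probes with it was not counted. The differences between the ages were -0.77 for *Foxn3*, -0.71 for *Ddx6*, -0.66 for *Trim37* and -0.44 for *Azin1*. The genes were chosen for these differences, which were not tested. Of the 177 measured partner genes, 12 (6.78%) had a genotype change that differed between the ages at an unadjusted p under 0.05 in limma, against 6.68% of all probes. The 5 of them named in the text, most of which were named for a small p at 80 days or between the ages, were *Acvr1* (0.37), *Trim3* (0.29), *Nedd8* (-0.26), *Smad7* (0.18) and *Oaz1* (0.23), and no difference on the array passed adjustment (smallest adjusted p = 0.496 in limma).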

How the results depend on the processing

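The probes with the largest difference of each of the 10 genes kept their signs at both ages under every alternative run, except *Bdp1* at 80 days without loess. Their sizes moved more. At 40 days other processing gave from 0.026 to 0.378 for *Bdp1*, 0.072 to 0.426 for *Arih1*, 0.039 to 0.205 for *Azin1*, 0.06 to 0.295 for *Plekha5*, 0.08 to 0.254 for *Malat1*, 0.103 to 0.297 for *Trim37*, 0.138 to 0.356 for *Bmpr2*, 0.229 to 0.475 for *Ddx6* and 0.223 to 0.42 for *Foxn3*. At 80 days it gave from -0.147 to 0.05 for *Bdp1*, -0.381 to -0.062 for *Arih1*, -0.353 to -0.141 for *Ddx6* and -0.291 to -0.127 for *Azin1*. Without loess the median change of all probes was -0.119 at 40 days and 0.083 at 80 days, and relative to it the 10 probes kept their signs. The change of *Bdp1* at 80 days was 0.05 before and -0.033 after that shift. The number of the 31 probes with opposite signs ran from 24 to 28 under other processing and from 25 to 30 with 1 array left out. These counts follow from the choice of the genes and test nothing. In the main processing 50.6% of all tested probes had opposite signs, and that share was not counted under the alternatives.

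Counts at an unadjusted p under 0.05 over all probes were 246 at 40 days and 797 for the difference without the background reset. They were 1615 at 40 days with the scanner's processed signals, 559 at 40 days in Cy3 alone and 538 in the authors' table. At 80 days the count after adjustment went from 0 to 1 in Cy3 alone, in the authors' table and without the filter. Without the filter on dim probes, where more probes were tested, they were 1881, 2412 and 2459 at 40 days, at 80 days and for the difference. Without loess they were 4308 for the difference and 2229 for age, with 4 of the 30 tested probes of the 10 genes called for age. Partner genes called numbered 2 at 40 days without the reset, 14 at 40 days and 18 for age without loess, 10 at 80 days and 20 for age in Cy3 alone, and 9 at 80 days in the authors' table. The cause was not tested.

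The share of calls that were higher in SOD1G93A, 54.6% at 40 days and 54.5% at 80 days, became 40.2% and 42.4% without the reset, 86.4% and 35.6% with processed signals, and 0.556% and 96.8% without loess. At 40 days it became 65.1% in Cy3 alone and 67.1% in the authors' table. For the difference 46.6% became 19.3% with processed signals and 99.6% without loess, and for age 51.7% became 28.1% without loess.

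Values near 0 turned sign. *Tbp* was 0.001, 0.073 and 0.002 for age without background subtraction, with processed signals and in Cy3 alone, and -0.002 and -0.118 at 40 days without subtraction and without loess. *Oaz1* at 40 days was 0.015 without subtraction and 0.002 with processed signals, and *Smad4* at 80 days was 0.042 without loess. With 1 array left out, *Oaz1* ran from -0.041 to 0.003 for age and from -0.04 to 0.047 at 40 days, *Smad4* from -0.109 to 0.024 and *Tbp* from -0.051 to 0.056 at 40 days.

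With 1 array left out, calls over all probes ran from 715 to 1894 at 40 days, from 974 to 1846 at 80 days, from 1194 to 1788 for the difference and from 4284 to 5465 for age. Those of the 10 genes for age ran from 5 to 10, and those of partner genes from 3 to 14 at 40 days, from 9 to 15 at 80 days and from 30 to 51 for age. The age calls of *Malat1* A_51_P377045 and *Trappc3* A_51_P162176 were each lost in 10 of the 16 fits without 1 array.

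Same-numbered samples share a slide, but their deviations correlated by -0.065 to 0.099 at 40 days and -0.006 to 0.195 at 80 days, not all above 0.1. With the replicate block, calls numbered 959 at 40 days, 1689 at 80 days, 1504 for the difference and 5021 for age, with 3 partner genes at 40 days. Not every sample correlated best with its own number.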
